A study of Mus musculus with 6 samples.

Results

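The 46 genes described here encode the complement and blood clotting proteins, chosen by name from a list of the 2 cascades, and each was matched to its array probes through the RefSeq accession of the probe. All 46 had a probe, out of 20659 genes named on the array, and 45 had a probe well above local background on at least 3 of the 6 arrays and were tested. They were 24 complement genes and 22 genes of coagulation and fibrinogen. Liver RNA came from male ICR mice, an outbred stock, dosed intragastrically with normal saline (the control group) or with DECB, a deproteinized calf blood extract, once a day for 35 days, at 0.08 mL per 20 g of body weight. The labels give 24 mice of 18 to 22 g, 12 in each group, and a closed-container test of hypoxia tolerance. The labels do not say if the liver was sampled ahead of that test or following it. Arrays of 3 control samples (control 1, 2 and 3) and 3 DECB samples (DECB 4, 5 and 6) were analysed, but their descriptions name 1 day (control) and 30 days (DECB) instead of 35. The labels do not tie the arrays to individual mice, and every p-value therefore reflects the spread among these 6 samples alone, part or all of which may be technical.

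Complement is a cascade of plasma proteins that marks microbes and damaged cells. It is started by antibody (classical pathway), by sugar-binding lectins or spontaneously (alternative pathway), converges on C3, and ends in a pore, the membrane attack complex, built from the terminal components. Coagulation is a parallel protease cascade that ends with thrombin turning fibrinogen into fibrin. Hepatocytes secrete most of these proteins, while macrophages make C1q and properdin and endothelial cells make factor VIII and thrombomodulin.

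Arrays were grouped by the scan time in their headers. Scan 1 held control 1 and DECB 6, scan 2 held controls 2 and 3 and DECB 4, and scan 3 held DECB 5 alone. Processed signals had a 75th percentile of 78.8 and 84.8 on the arrays of scan 1 and of 422 to 551 on the others, and 14922 to 29490 of 39429 probes per array were well above background. All 12 hepatocyte markers, such as Alb and Apoa1, were well above background on all arrays. Values are log2 signals less the 75th percentile of the same array, and a difference is DECB minus control on that scale. Levels of different genes were not compared, since probes differ in brightness. In bulk liver, fewer cells of a type and less RNA per cell cannot be told apart.

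No member passed the test of DECB against control over all 14805 genes (limma, Benjamini-Hochberg adjusted p under 0.05), a test that 0.466% of all genes passed. The members with the largest differences were C6 and C9, both terminal complement components, followed by F13b of the coagulation members. C6 was 4.41-fold higher in DECB and C9 2.32-fold, with the terminal components C8a at 1.77-fold and C8b at 1.59-fold. For each of these 4 all 3 DECB arrays lay above all 3 control arrays, as they did for 7.24% of all genes. F13b was 2.07-fold lower. Of the coagulation members 17 of 22 were below 0, between 14 (without control 1) and 18 with 1 array left out. At their brightest probes neither fibrinogen nor C3, the most abundant products of the 2 cascades in plasma, differed beyond the spread between arrays. The second probe of Fga did not overlap between the groups.

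At an unadjusted p under 0.05 (limma) there were 3 of 23 tested complement members higher and 0 lower, and 0 of 22 coagulation members higher and 1 lower. The same shares of all genes were 4.22% higher and 5.79% lower. Groups of arrays did not overlap for 5 complement members, 4 higher and 1 lower, and for 3 coagulation members, all lower. Of all genes with 6 values, 7.24% lay wholly higher and 9.40% wholly lower. Over both arms 4 of 45 tested members lay wholly higher and 4 wholly lower. Together that is near the share of all genes without overlap in either direction, 16.6%. The median difference was -0.077 over complement members and -0.36 over coagulation members, beside -0.027 over all genes tested. Without control 1 the coagulation median was -0.12. The complement median changed sign with the array left out, from -0.29 without DECB 6 to 0.14 without DECB 5, and was 0.043 with quantile normalization. All 12 hepatocyte markers also lay below 0, with a median of -0.25, against 52.5% of all genes below and 47.5% above 0, and their part in the coagulation median was not tested. Markers of 2 other cell types had summed signals, with each array's 75th percentile signal as 1 unit, that did not overlap between the groups. For neutrophils, 5 of 9 markers were kept and summed to 78.7 to 107.9 on control and 60.9 to 69.8 on DECB arrays, a sum set mostly by Csf3r (difference -0.55). The other 4 lay above 0, among them S100a8 and S100a9, at 1.57 each and without overlap (limma adjusted p = 0.101 and 0.167; 0.0309 and 0.0215 with scan as a block). For adipocytes, 4 of 8 markers were kept and summed to 231 to 288 against 108 to 186, set mostly by Car3 (-0.80). Adrb3 also lay below 0 (-2.40, adjusted p = 0.155; 0.0254 with scan as a block), Retn and Lipe above it (0.40 and 0.88), and Adipoq, Lep, Plin1 and Cidea were well above background on 0, 0, 1 and 2 arrays. The fit with scan as a block called 2.74% of all genes higher and 3.94% lower, and DECB 5, alone in its scan, adds nothing to its contrast. The part of these cell types in the members' values was not tested either.

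**Figure D1:**
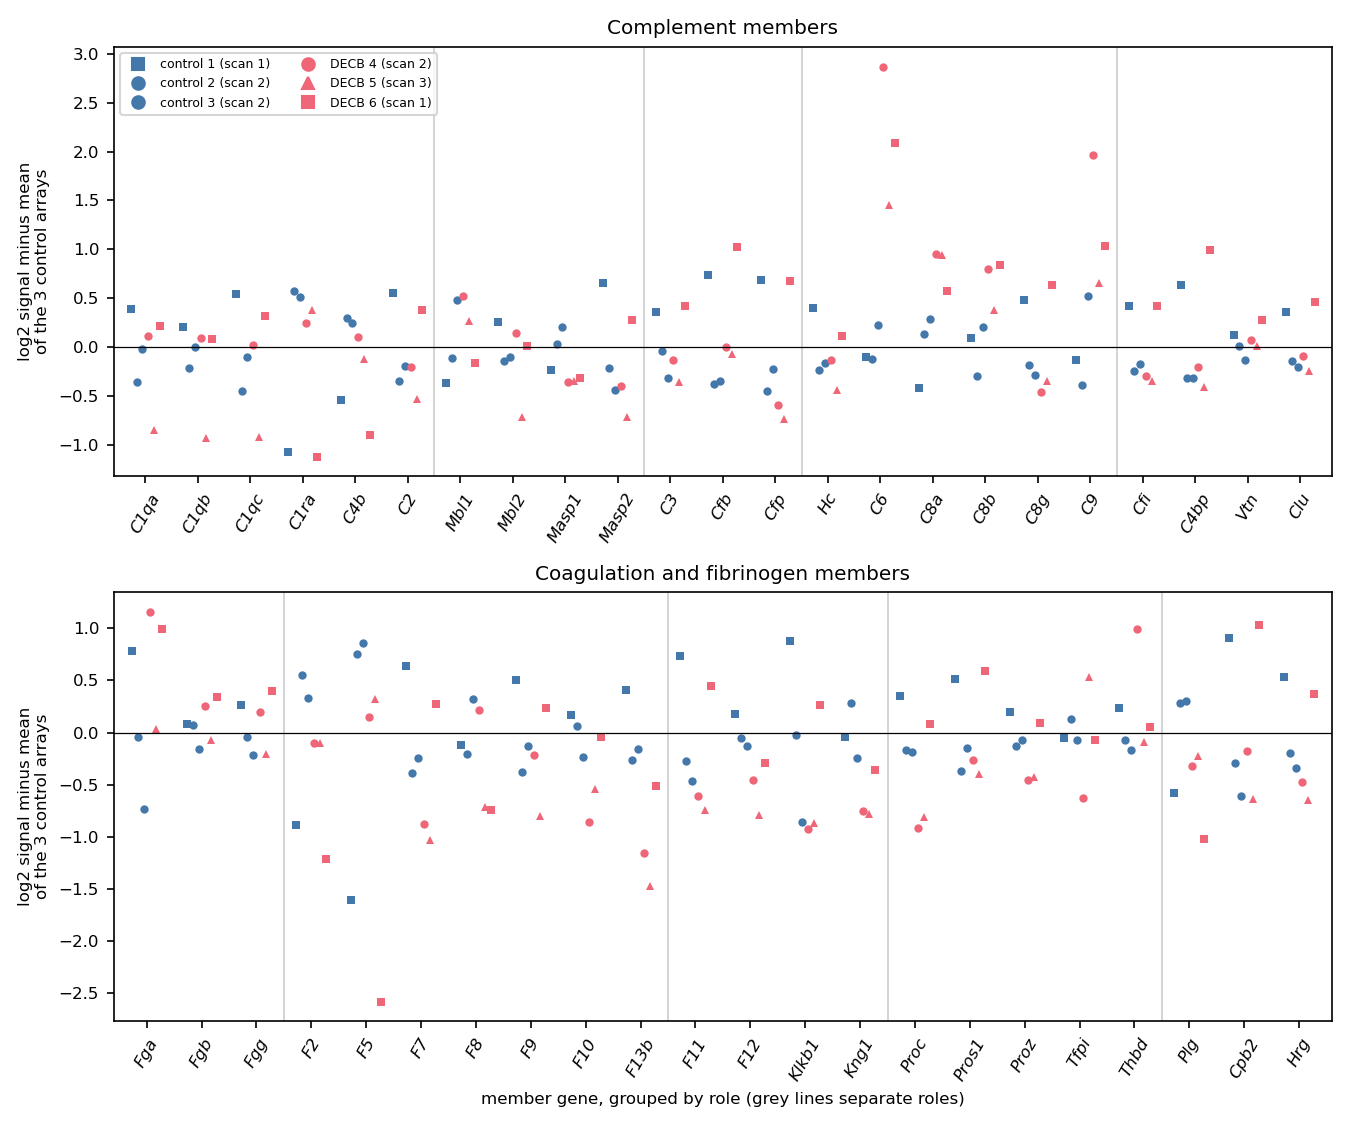
Each point is 1 array's log2 signal (y axis) for 1 of 45 tested members (x axis, by role), minus the mean of the 3 control arrays, with colour for the group and shape for the scan. The DECB points of C6, C8a, C8b and C9 lie above their controls, those of F13b below, and the squares of scan 1 lie apart for many other members.

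The terminal components assemble in order: C5 (gene Hc) is cleaved, C6 and C7 bind it, C8 inserts in the membrane and C9 forms the ring of the pore. C6 had control values of -0.92, -0.94 and -0.60 and DECB values of 2.05 (DECB 4), 0.64 (DECB 5) and 1.27 (DECB 6). Control values were close together, and the lowest DECB array was above the highest control by more than the range of the controls. The difference was 2.14 (SE 0.40, 95% interval 1.19 to 3.09, limma adjusted p = 0.0911). With scan as a block it was 2.55 and passed (adjusted p = 0.0185), in a fit that called 2.74% of all genes higher and 3.94% lower and in which DECB 5, alone in its scan, adds nothing to the contrast. The difference was 2.20 within scan 1 and 2.82 within scan 2.

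C9 had control values of 0.51, 0.26 and 1.17 and DECB values of 2.61, 1.31 and 1.68. DECB 5 lay just above control 3, so the groups were barely separate. The difference was 1.22 (SE 0.43, 95% interval 0.19 to 2.24, adjusted p = 0.395), 1.17 within scan 1 and 1.90 within scan 2. It was 0.84 without DECB 4, the highest array.

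C8 is made of 3 chains from 3 genes. The groups did not overlap for C8a and C8b and overlapped for C8g, and the chains were not tested against each other. C8a, the chain that enters the membrane, had control values of 4.56, 5.12 and 5.26 and DECB values of 5.93, 5.92 and 5.56. Its difference was 0.82 (SE 0.31, 95% interval 0.093 to 1.55, adjusted p = 0.43), and its other probe differed by 0.90. C8b, which binds the growing complex, had control values of 3.58, 3.19 and 3.69 and DECB values of 4.28, 3.86 and 4.33. Its difference was 0.67 (SE 0.29, 95% interval -0.020 to 1.37, adjusted p = 0.52). Both were higher on each DECB array than on any control array, by a small margin for C8b.

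The third chain, C8g, which belongs to the lipocalin family, differed by -0.062 (brightest probe, 95% interval -1.01 to 0.89) and 0.0029 (second probe). That interval includes the differences of C8a and C8b at their brightest probes. Hc differed by -0.16 (95% interval -0.89 to 0.58). C7, the remaining terminal component and no member here, differed by -0.15 and was well above background on 2 arrays of each group. Of the 6 terminal members, 4 were therefore above 0 and without overlap, with a median of 0.75, a count with no test of its own. Among all genes 7.24% lay wholly higher. With quantile normalization, or without control 1, all 6 lay above 0.

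**Figure D2:**
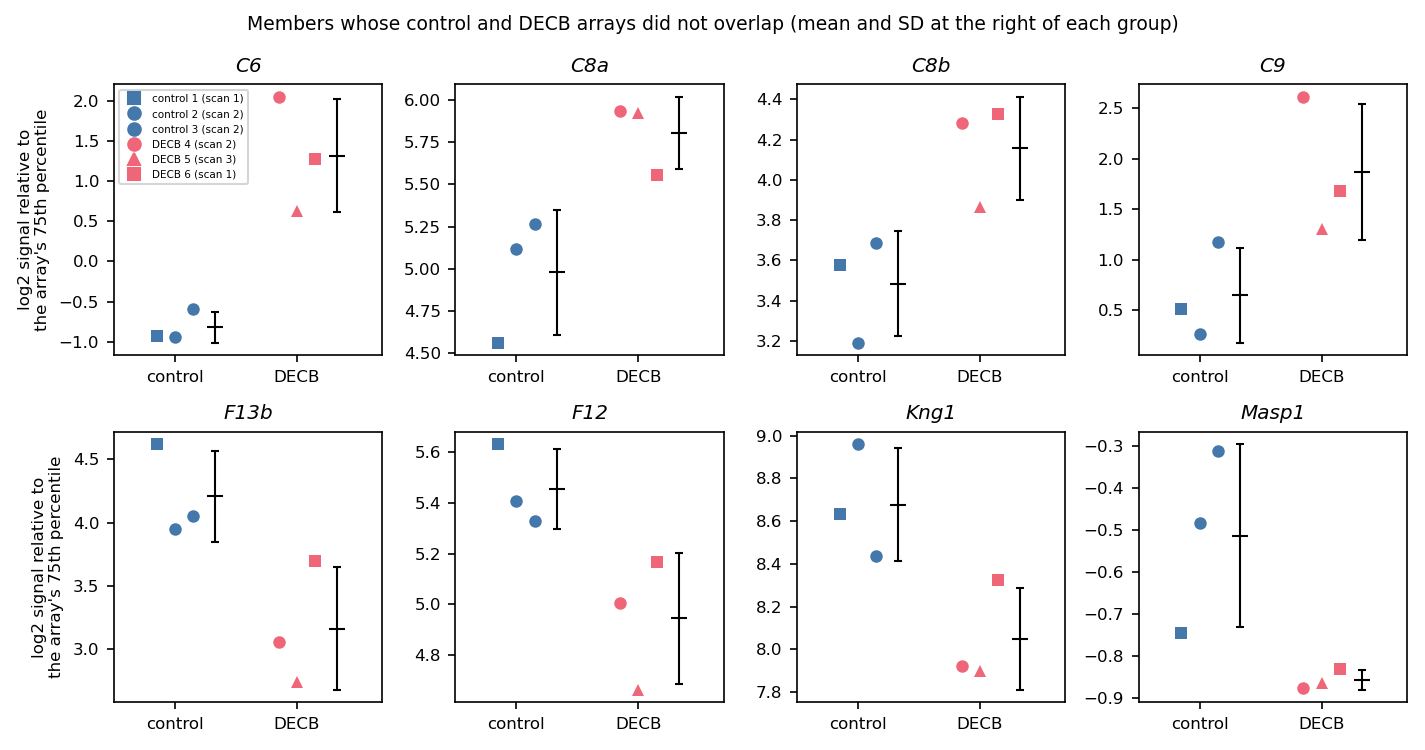
Signal on a log2 scale, with each array's 75th percentile at 0 (y axis), in control and DECB arrays (x axis) for the 8 members whose groups did not overlap, with mean and SD (n = 3) beside the points; y axes do not start at 0. C6 shows the widest separation, and Masp1 the narrowest difference in means.

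C8a and C8b are next to each other among the protein-coding genes of the RefSeq table. To show what lies before the starts of the 4 higher terminal genes and of F13b, the 250 bases upstream of each RefSeq start (GRCm38.p6, 5′ to 3′ on the gene's strand) are given. Capitals mark matches on either strand to 5 short motifs: GTTAAT, a core of the HNF1 site; TTNNGNAAT, bound by C/EBP factors; CTGGGAA, an element that answers interleukin-6; TTCNNNGAA, bound by STAT factors; and CCAAT. The regions are chr15:4726960-4727209 (C6, plus strand), chr4:104876399-104876648 (C8a, minus strand), chr4:104766067-104766316 (C8b, plus strand), chr15:6445096-6445345 (C9, plus strand) and chr1:139501457-139501706 (F13b, plus strand).
C6: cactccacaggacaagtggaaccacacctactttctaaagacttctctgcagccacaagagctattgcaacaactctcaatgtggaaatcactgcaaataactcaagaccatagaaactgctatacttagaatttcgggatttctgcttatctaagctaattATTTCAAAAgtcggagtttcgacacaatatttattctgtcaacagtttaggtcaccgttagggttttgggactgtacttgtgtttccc
C8a: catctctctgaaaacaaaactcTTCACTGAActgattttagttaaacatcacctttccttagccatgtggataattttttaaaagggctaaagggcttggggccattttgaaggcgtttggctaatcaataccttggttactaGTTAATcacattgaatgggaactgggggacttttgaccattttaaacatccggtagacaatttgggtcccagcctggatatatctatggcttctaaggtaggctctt
C8b: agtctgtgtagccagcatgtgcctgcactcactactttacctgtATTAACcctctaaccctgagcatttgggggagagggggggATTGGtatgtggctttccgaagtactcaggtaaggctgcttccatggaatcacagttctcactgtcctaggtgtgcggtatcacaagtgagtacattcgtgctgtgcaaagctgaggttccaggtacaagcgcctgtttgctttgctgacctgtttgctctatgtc
C9: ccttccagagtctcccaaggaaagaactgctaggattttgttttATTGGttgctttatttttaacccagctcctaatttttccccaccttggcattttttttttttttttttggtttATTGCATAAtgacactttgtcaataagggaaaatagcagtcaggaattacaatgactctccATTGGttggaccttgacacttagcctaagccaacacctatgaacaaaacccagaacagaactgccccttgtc
F13b: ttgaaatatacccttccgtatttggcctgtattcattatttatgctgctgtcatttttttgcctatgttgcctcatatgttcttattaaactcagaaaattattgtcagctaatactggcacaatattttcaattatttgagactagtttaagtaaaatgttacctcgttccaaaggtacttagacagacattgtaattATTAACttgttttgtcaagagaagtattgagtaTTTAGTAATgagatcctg
C6 and C9 held the C/EBP motif, and C8a and C8b the HNF1 core, so no single motif was common to the 4. F13b held both. CCAAT was in C8b and C9, and STAT in C8a only.

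Promoter windows were found for 35 of the 46 members, 37 windows in all. The HNF1 core was in 11 of the 37, 7 of them of complement genes and 4 of coagulation genes, against 6.43% of all 32851 windows in the table. HNF1 is a transcription factor of hepatocytes. C/EBP matches were in 7 of 37 against 10.2%, the interleukin-6 element and the STAT motif in 6 each against 9.10% and 7.02%, and CCAAT in 7 against 33.9%. Fgb and Fgg, fibrinogen chains induced by interleukin-6 in hepatocytes, both held CTGGGAA, and Fga and Fgb each held a STAT match. Base composition was not matched, and a match is a description and not a binding site.

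The genes that start the classical pathway showed no separation of the groups. C1qa, C1qb and C1qc, the 3 chains of the antibody-recognising protein, are neighbours on the chromosome and differed by -0.17, -0.25 and -0.20, each with DECB 5 the lowest of the 6 arrays. C1qa, for example, had control values of 1.41, 0.66 and 0.99 and DECB values of 1.13, 0.17 and 1.23. The protease gene C1ra differed by -0.17 (brightest probe) and 0.10 (second probe), and C4b and C2, which form the C3 convertase, by -0.30 and -0.12. All 6 lay below 0, and all 6 95% intervals included 0. Without DECB 5 only 2 of the 6 lay below 0. Within scan 2 the C1q chains lay above 0, at 0.31, 0.19 and 0.29. C1ra and C4b have near-identical copies (C1rb, C4a), and a probe may bind RNA of both.

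C1q is made by macrophages. Of 12 macrophage markers, 9 were kept, 0 passed the test (at an unadjusted p under 0.05 also 0), and 6 lay below 0. Their summed signal, in units of the array's 75th percentile, was 23.2 to 33.2 on control arrays and 24.5 to 26.5 on DECB arrays, so the groups overlapped. Lyz2 was well above background on no array and Cd163 on 1. Whether the C1q values follow the number of macrophages was not tested.

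Among the lectin pathway genes, Mbl1 and Mbl2, the mannose-binding lectins, differed by 0.21 and -0.19. Masp2, the protease that cleaves C4 and C2, differed by -0.28, and its other probes by -0.17 and -0.68. Masp1, its partner protease, had control values of -0.75, -0.48 and -0.31 and DECB values of -0.88, -0.87 and -0.83. The groups did not overlap, but control 1 lay close to the DECB arrays, and the difference of -0.34 (SE 0.27, 95% interval -0.97 to 0.28) did not pass (limma adjusted p = 0.82).

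C3, on which all pathways converge, had control values of 9.59, 9.19 and 8.91 and DECB values of 9.09, 8.87 and 9.64. Arrays of scan 1 were the highest in each group, and the difference was -0.026 (SE 0.34, 95% interval -0.82 to 0.77). Its second probe differed by 0.11. Cfb, the protease subunit of the alternative convertase, differed by 0.32 (95% interval -0.76 to 1.39), and Cfp, properdin, which stabilises that convertase, by -0.22. Cfd, the protease that activates Cfb and a product of fat cells, was well above background on 0 of 6 arrays and was not tested. The adipocyte markers Adipoq and Lep were likewise above background on 0 arrays. Plin1, Cidea, Lipe and Retn were above it on 1, 2, 4 and 5 arrays, and Adrb3 and Car3 on all 6.

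The regulators had the smallest median size of difference among the complement roles, 0.0982. Cfi, which degrades C3b and C4b, differed by -0.077, C4bp, its cofactor, by 0.13, Vtn, vitronectin, which blocks the terminal complex, by 0.12, and Clu, clusterin, which does the same, by 0.039. The interval for Vtn, -0.50 to 0.73, was the narrowest of the 4.

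Fibrinogen is a 3-chain protein whose genes lie side by side. At the brightest probes all chains were above 0 without separation of the groups, except that Fgg lay at -0.0028 without DECB 6. Fga had control values of 6.43, 5.61 and 4.92 and DECB values of 6.81, 5.69 and 6.64. The groups overlapped, with DECB 5 below control 1. The difference was 0.73 (SE 0.49, 95% interval -0.42 to 1.88, limma adjusted p = 0.764), 0.21 within scan 1 and 1.55 within scan 2. It was 0.36 without control 3 and 1.12 without control 1. Its second probe differed by 0.98, and there the groups did not overlap. That probe read 2.66, 2.32 and 2.15 on control and 3.27, 3.02 and 3.78 on DECB arrays. With the mean of its probes Fga differed by 0.85 (limma adjusted p = 0.494).

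Fgb had control values of 8.85, 8.85 and 8.62 and DECB values of 9.03, 8.70 and 9.11, a difference of 0.17 (SE 0.27, 95% interval -0.47 to 0.81, limma adjusted p = 0.978). Fgg had control values of 8.80, 8.50 and 8.32 and DECB values of 8.74, 8.34 and 8.94, a difference of 0.13 (SE 0.30, 95% interval -0.58 to 0.84). The upper bounds leave room for a 1.76-fold rise of Fgb and a 1.79-fold rise of Fgg.

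All 7 procoagulant proteases and cofactors lay below 0, with a median of -0.48, but single arrays decided some of these signs. Without DECB 6 the difference of F5 was 0.24 and that of F2 -0.097, and without DECB 5 that of F9 was 0.011. Within scan 2, F8 and F9 lay at 0.16 and 0.038. F13b, the carrier subunit of the factor that crosslinks fibrin, had control values of 4.62, 3.95 and 4.06 and DECB values of 3.06, 2.74 and 3.69. All DECB arrays were below all controls, with DECB 6 close to control 2. The difference was -1.05 (SE 0.36, 95% interval -1.90 to -0.20, limma adjusted p = 0.376), -0.93 within scan 1 and -0.95 within scan 2. With scan as a block it was -0.94 and passed (adjusted p = 0.0404), with the limit on DECB 5 given for C6.

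The other 6 overlapped between groups. The vitamin K-dependent proteases F2 (prothrombin), F7, F9 and F10 differed by -0.47, -0.54, -0.26 and -0.48, and the cofactors F5 and F8 by -0.70 and -0.41. F5, at its brightest probe, had the widest interval of all members, -2.97 to 1.57. There control 1 and DECB 6 read 1.45 and 0.48 against 3.21 to 3.92 on the other arrays. The second probe of F5 differed by -0.31 and was not lower on control 1 and DECB 6, at 2.33 and 2.43 against 1.27 to 2.23. F7 and F10 are neighbours on the chromosome, and both of their probes lay below 0. F8 was well above background on 2 arrays of each group. Endothelial cells are its main source, and the 12 endothelial markers summed to 26.8 to 45.7 on control arrays and 19.9 to 37.2 on DECB arrays, with 0 past the test (0 also at an unadjusted p under 0.05) and 9 below 0. Their part in the value of F8 was not tested.

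The 4 contact system genes, which start clotting on charged surfaces and release bradykinin, were also all below 0, except F11 (0.067) when control 1 was left out. F12, the protease that starts the system, had control values of 5.63, 5.41 and 5.33 and DECB values of 5.00, 4.66 and 5.17. The groups did not overlap, and the difference was -0.51 (SE 0.28, 95% interval -1.17 to 0.15, limma adjusted p = 0.655). Kng1, kininogen, the source of bradykinin, had control values of 8.63, 8.96 and 8.44 and DECB values of 7.92, 7.90 and 8.32.

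For Kng1 the groups did not overlap either, and the difference was -0.63 (SE 0.29, 95% interval -1.32 to 0.059, limma adjusted p = 0.549). Its other probe differed by -0.35 with overlapping groups, since DECB 6 (4.48) lay above control 2 (3.84) and control 3 (4.14). Kng2, a near-identical copy whose RNA may bind the same probes, differed by -0.32. F11 and Klkb1, plasma prekallikrein, are neighbouring genes and differed by -0.30 and -0.51 with overlapping groups.

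**Figure D3:**
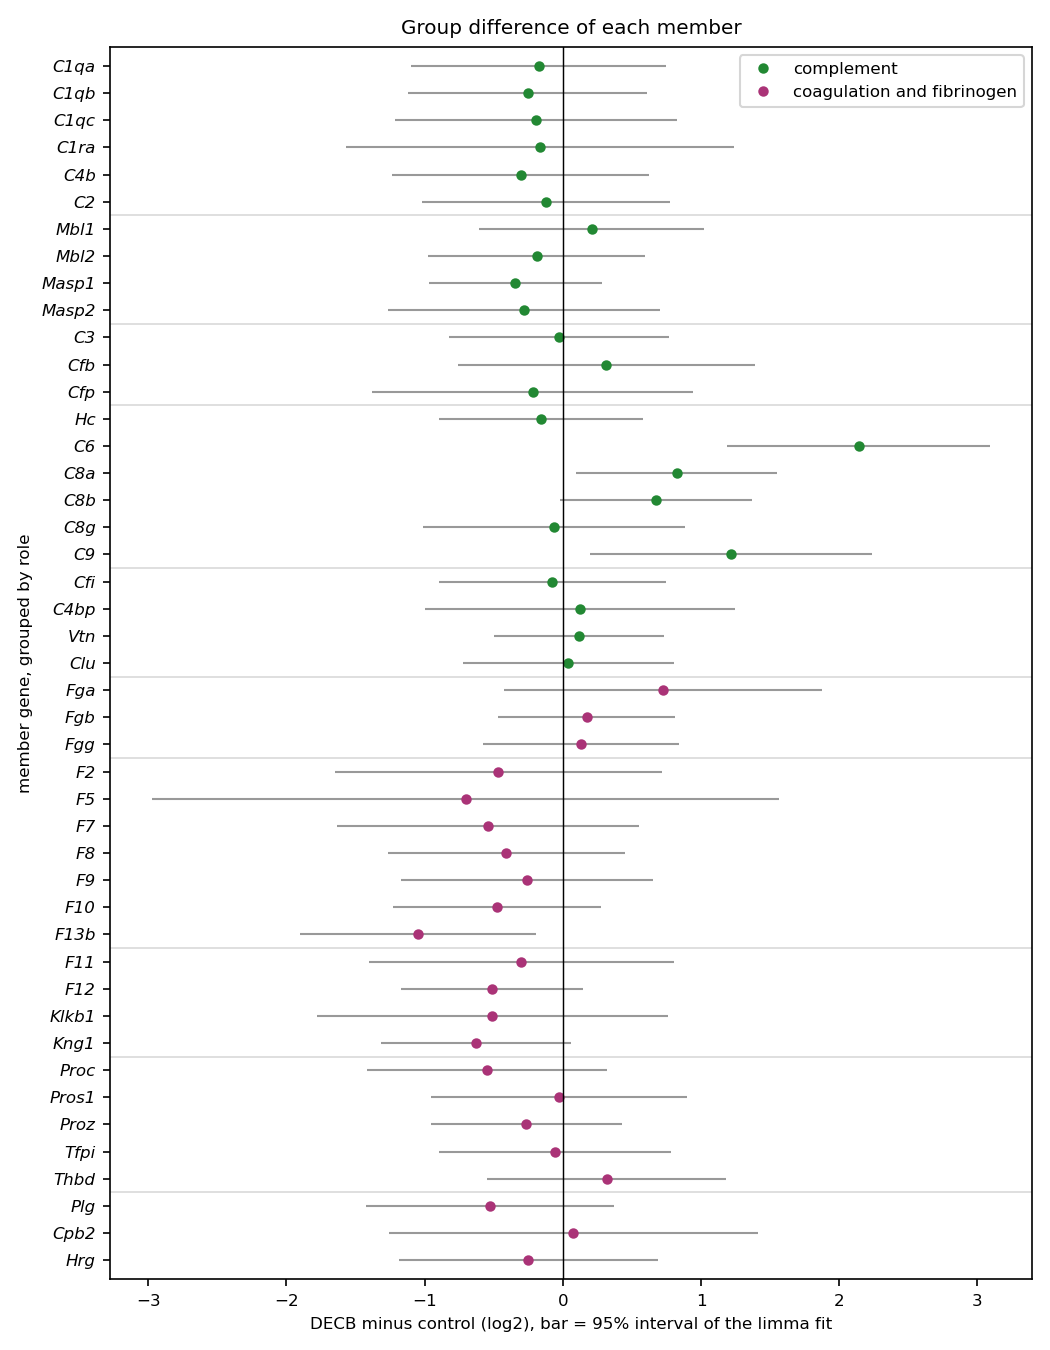
Difference of DECB minus control (x axis, log2) for each tested member (y axis, by role), with the 95% interval of the limma fit as a bar (3 arrays in each group). The intervals of C6, C8a, C9 and F13b exclude 0 before adjustment for 14805 genes, and the procoagulant and contact system members all lie left of 0.

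Anticoagulant members were mixed. Proc, protein C, which inactivates factors V and VIII, differed by -0.55, with control values of 7.02, 6.50 and 6.48 and DECB values of 5.75, 5.86 and 6.75. DECB 6 alone lay within the controls. Its cofactor Pros1 differed by -0.025, Proz, protein Z, a cofactor that helps inhibit factor X, by -0.26, and Tfpi, which blocks the start of clotting, by -0.054. Thbd, thrombomodulin, the endothelial receptor that switches thrombin to activating protein C, differed by 0.32 and was well above background on 2 arrays of each group. DECB 4 was its highest array, at -1.84 against -2.99 to -2.59 on the others.

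Of the genes of clot lysis, Plg, plasminogen, differed by -0.52, Cpb2, which protects fibrin from lysis, by 0.075, and Hrg, a plasminogen-binding plasma protein, by -0.25. All 3 overlapped between the groups. Plg read 6.63 in control 1 and 6.19 in DECB 6 against 6.90 to 7.52 on the other arrays.

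The gap between scans was larger than the group difference for most members. It was taken within each group, scan 1 minus scan 2, and averaged over the 2 groups. Its size exceeded that of the group difference for 32 of 45 members (71.1%), a share near that of all genes (71.6%). The exceptions include C6, with a gap of -0.47, C9 (-0.57), C8a (-0.50), C8b (0.091), F13b (0.63), F12 (0.22) and Kng1 (0.17). F5 had the widest gap, -2.57. The group difference had the same sign within scan 1 and within scan 2 for 18 of 22 coagulation members, 14 of them below 0, and for 16 of 23 complement members, against 65.2% of all genes. For genes without overlap between the groups that sign is fixed.

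**Figure D4:**
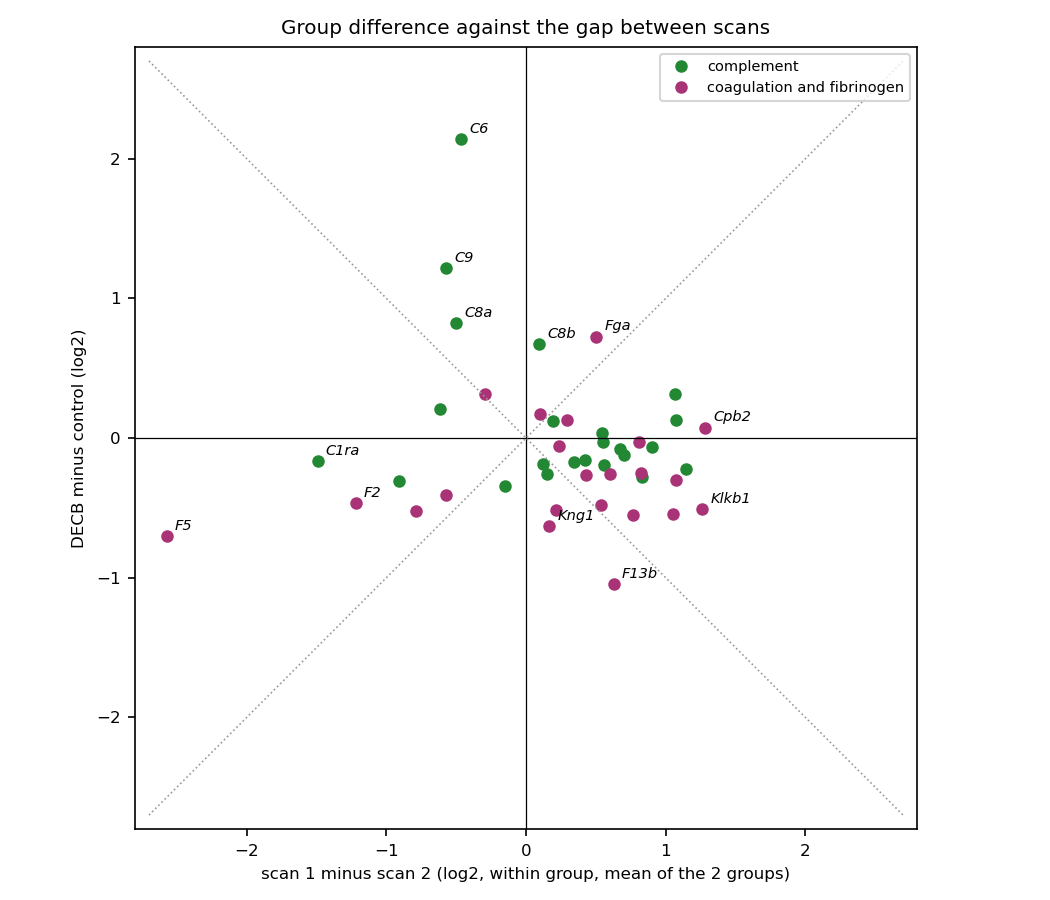
Group difference (y axis, log2, DECB minus control) against the gap between scans (x axis, log2, scan 1 minus scan 2 within group) for 45 members; on the dotted lines both have the same size. C6, C9, C8a, C8b and F13b lie between the vertical axis and a dotted line, where the group difference is the larger, and F5, C1ra and F2 far to the left.

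Other genes of the pathways were taken from 2 lists. Of 23 tested complement genes outside the member list, 0 passed (limma, 1 higher and 1 lower at an unadjusted p under 0.05). The same shares of all genes were 4.22% and 5.79%. C5ar2, a receptor for C5a, differed by -1.21 (limma adjusted p = 0.367) and was above background on 2 control arrays and 1 DECB array. Colec10, a collectin, differed by -1.01.

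Of 27 tested coagulation genes outside the member list, 0 passed (limma, 2 higher and 0 lower at an unadjusted p under 0.05). Among all genes 4.22% were higher and 5.79% lower at that threshold. Gas6, a vitamin K-dependent ligand of TAM receptors, had control values of 2.53, 2.36 and 2.23 and DECB values of 4.03, 3.91 and 4.23. The arrays of each group were close together, and the difference was 1.68 (SE 0.27, adjusted p = 0.0622; 1.72 with scan as a block, adjusted p = 0.0185). Serpina10, the inhibitor that protein Z assists, had control values of 5.49, 4.75 and 4.94 and DECB values of 6.48, 5.97 and 6.59, a difference of 1.29 (SE 0.33, adjusted p = 0.201; 1.41 with scan as a block, adjusted p = 0.033). The fit with scan as a block called 2.74% of all genes higher, and the limit on DECB 5 given for C6 applies. S100a10 and Procr, the protein C receptor, differed by 0.90 and 0.54, and Procr was well above background on 2 arrays of each group. The medians of the lists were -0.086 and 0.025.

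Fibrinogen and several complement genes are counted among acute phase genes, which the liver switches on in inflammation. Of 20 other acute phase genes 18 were above 0, with a median of 0.94. In the main fit 1 passed, Saa1, serum amyloid A, higher by 3.53 (SE 0.36, limma adjusted p = 0.026). At an unadjusted p under 0.05 there were 9 higher and 0 lower, against 4.22% and 5.79% of all genes. With scan as a block 10 passed as higher and 0 as lower, in a fit that called 2.74% of all genes higher and 3.94% lower. The limit on DECB 5 given for C6 holds here too. Of the 20, 8 lay wholly higher and 0 wholly lower, against 7.24% and 9.40% of all genes. Lcn2, lipocalin 2, differed by 2.89 (adjusted p = 0.0514), Saa4 by 1.63 (adjusted p = 0.0679) and Saa2, a near-identical copy of Saa1, by 2.76 (adjusted p = 0.151). Their limma adjusted p with scan as a block was 0.024, 0.0315 and 0.0234, in that order. The medians of the fibrinogen chains (0.17) and of the complement members lay below that of this list, and the difference between lists was not tested.

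Of 22 receptors and transcription factors known to act on these genes 0 passed (limma, 3 higher and 2 lower at an unadjusted p under 0.05). With scan as a block 2 passed as higher and 2 as lower. Il1r1, the interleukin-1 receptor, differed by 1.71 and Socs3, a feedback inhibitor of interleukin-6 signalling, by 1.50. Il6ra, the interleukin-6 receptor, differed by -0.93, with all DECB arrays below all controls, and Osmr, the oncostatin M receptor, by 1.14. Their adjusted p in the main fit lay between 0.143 and 0.435. Il1r1, Osmr and Il6ra were among those that passed with scan as a block, and Socs3 was not (limma adjusted p = 0.0596).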

How the data were processed

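The deposited files hold the scanner readings of 6 Agilent 1-colour (Cy3) arrays, 1 file per array. Per the file headers, Agilent Feature Extraction 11.0.1.1 made the processed signal, a linear intensity, by subtracting background and a spatial trend; arrays were not scaled to each other. Marks of spots above background and of outlier spots (0 or 1) are the scanner software's, per the file headers. The deposited series table, for which the labels state no method, holds values read as log2 with a median of 5.34 in every column; its scale, centring and direction stay unknown. It did not follow the scanner values (r with the own array 0.742 to 0.774, with any array 0.729 to 0.774, and -0.034 to 0.044 after centring each probe) and was used in no comparison.

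Processed signals were put on a log2 scale and the 75th percentile of the array's 43020 non-control spots was subtracted; 1377 control spots and outlier-marked spots were left out, and no spot was saturated. Spots of a probe were averaged, probes well above background on at least 3 arrays were kept (25418 of 39429), and a gene was its brightest probe. RefSeq accessions matched 27234 of 28684 probes to GRCm38.p6 symbols; 12195 probes stayed unnamed. Tests used limma 3.58.1 in R 4.3.3 (lmFit, eBayes, two-sided, Benjamini-Hochberg over 14805 genes), and the script was tested on simulated data. The number of arrays limits the precision; no exact permutation p could fall below 0.1. Members and lists were chosen with earlier results of these data known. Full values were given for members with an unadjusted p under 0.05 or no overlap between groups and for C3, Fga, Fgb and Fgg, and also, chosen after values were seen, for C1qa, Proc, Gas6 and Serpina10, with single arrays of F5, Thbd and Plg; of other lists at most 4 genes with the smallest p were named, besides marker genes named for their detection and C7 and Kng2 named as partners of members. Some genes of the list of other complement genes are not reported here. The alternatives were normalization, background correction, filter, probe summary, scan, arrays left out, and controls 2 and 3, the closest pair (r = 0.992 across genes), averaged. Sequences are from RefSeq tables of GRCm38.p6; the array design names mm9, so no probe coordinates are given.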

Additional observations from a re-analysis of the deposited data

How the results depend on the processing

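No paired analysis was possible because the sample titles share no number between the groups. In the limma fits run, 0 complement and 0 coagulation members passed under quantile normalization, normexp, no filter, the strict filter, the mean of a gene's probes, without scan 1, without any 1 array, and with controls 2 and 3 averaged. With scan as a block 1 complement member (C6) was higher and 1 coagulation member (F13b) lower; cause not tested. With 1 array left out the complement median ran from -0.29 to 0.14 and the coagulation median from -0.42 to -0.12. C3 lay above 0 with the mean of its probes (0.039), with scan as a block (0.048) and within scans 1 and 2 (0.054 and 0.043), and ran from -0.25 to 0.15 with 1 array left out; Fgg ran from -0.0028 to 0.30. The differences of C6 and C9 ran from 1.73 to 2.82 and from 0.84 to 1.90 over the 16 alternatives, and that of F13b from -1.31 to -0.83. Genes called over the whole array numbered 69, against 39 with quantile normalization, 988 with scan as a block, 0 with no filter, and 0 to 53 with 1 array left out. Normexp used median spot signals, since the files hold no mean signal, and the value table was not run. The fits without 1 array assume that both groups vary alike. The dim scan 1 limits what can be read of genes near background, such as F8 and Thbd.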

Other observations

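Of the 45 tested members 11 had more than 1 kept probe, and for 5 of them the probes moved in opposite directions between scans. C1ra read lower on scan 1 by a gap of -1.49 at its brightest probe and higher by 1.24 at its other probe. F5 had gaps of -2.57 and 0.72, F10 of 0.54 and -1.71, C8g of 0.90 and -1.44, and C8a of -0.50 and 0.63. The group difference kept one sign over the probes in 7 of these 11 genes and changed sign in 4, C1ra, C3, C8g and Tfpi, whose differences lay between -0.17 and 0.21. For C8a the probes gave opposite gaps between scans and near-equal group differences, 0.82 and 0.90. What sets the probes apart between scans was not tested.

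Member genes that are direct neighbours on a chromosome formed 9 pairs, and in 8 of them both genes differed in the same direction, the exception being Cfb and C2. The share among neighbouring genes of the whole array was not computed, and 31 of the 45 tested members lay below 0. The pairs include the fibrinogen cluster, C8a with C8b, the C1q cluster, F7 with F10 and F10 with Proz, and F11 with Klkb1; pairs of one cluster share a gene and are not independent, and probes of one array share its scan.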
